A study of Mus musculus with 4 samples.

Results

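Mineralisation of bone depends on a small set of enzymes and transporters that handle phosphate and pyrophosphate, and the chromatin at the genes of 6 of them, *Alpl*, *Phospho1*, *Enpp1*, *Ank*, *Slc20a1* and *Slc20a2*, was examined by ATAC-seq in osteoblasts with and without the TET enzymes. ATAC-seq uses a transposase that cuts and tags open DNA, so that the number of reads in a region measures its accessibility. Every region of the deposited count table that overlapped one of these genes or the 25 kb on either side was taken, in GENCODE M21 on GRCm38. This gave 135 of 255864 regions, and all of them are accounted for here, with no filter on low counts. The rule itself used no measured value.

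Primary osteoblasts, the bone-forming cells, came from 3-day-old C57BL/6 mice, and the methods of the study place them in the calvaria. WT mice, given in the labels only as wild type, were compared with TCKO mice, which carried Prx1-Cre together with floxed alleles of *Tet1*, *Tet2* and *Tet3* (Tet1fl/fl, Tet2fl/fl, Tet3fl/fl). Prx1-Cre is a recombinase active in mesenchyme of the limb bud and of part of the skull, so cells in which it was never active can keep their *Tet* alleles. The labels listed 4 samples, 2 per genotype, although one protocol text named 3 repeats, and the deposited table held 1 merged column per genotype.

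Hydroxyapatite, the mineral of bone, is built from calcium and phosphate, and its growth is blocked by inorganic pyrophosphate. Tissue-nonspecific alkaline phosphatase, encoded by *Alpl*, removes pyrophosphate at the osteoblast surface and is a classical marker of the lineage, while PHOSPHO1 releases phosphate from lipid-derived substrates inside matrix vesicles. On the opposing side, ENPP1 makes pyrophosphate from nucleotides and ANK (progressive ankylosis protein) carries it or its precursor out of the cell, and PiT-1 (*Slc20a1*) and PiT-2 (*Slc20a2*) bring phosphate in together with sodium. TET dioxygenases oxidise 5-methylcytosine, which in mammalian DNA lies mostly in CpG dinucleotides.

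The sequences below are from regions on which the accounts of the loci turn, read from the plus strand of GRCm38, 5′ to 3′, with every CpG in capitals. Regions longer than 300 bases are shown by their middle 300 bases, and of the *Alpl* promoter region the part before the annotated gene start is shown. The first is the *Alpl* promoter, whose ratio had an interval that held 0, with 18 CpGs in 186 bases at chr4:137796385-137796570, and it holds 2 GC boxes (GGGCGG on either strand).
Alpl promoter: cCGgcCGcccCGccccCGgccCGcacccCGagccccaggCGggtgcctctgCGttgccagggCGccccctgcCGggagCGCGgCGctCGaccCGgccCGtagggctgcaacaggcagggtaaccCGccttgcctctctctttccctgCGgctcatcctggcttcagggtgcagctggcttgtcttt
The next is the intron region of *Alpl* with the most reads in the gene, lower in TCKO, at chr4:137748797-137749096, with 4 CpGs and 1 Runt consensus (ACCACA on either strand, the core bound by RUNX2).
Alpl intron: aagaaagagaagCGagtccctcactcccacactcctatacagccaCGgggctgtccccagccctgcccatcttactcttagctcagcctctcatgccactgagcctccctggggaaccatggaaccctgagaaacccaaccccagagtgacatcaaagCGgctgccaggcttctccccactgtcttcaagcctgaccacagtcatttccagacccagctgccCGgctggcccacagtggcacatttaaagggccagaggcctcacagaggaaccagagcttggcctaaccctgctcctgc
Upstream of *Alpl*, the region with the highest ratio of the locus, at chr4:137814189-137814439, has 2 CpGs and no match to the Runt consensus.
Alpl upstream: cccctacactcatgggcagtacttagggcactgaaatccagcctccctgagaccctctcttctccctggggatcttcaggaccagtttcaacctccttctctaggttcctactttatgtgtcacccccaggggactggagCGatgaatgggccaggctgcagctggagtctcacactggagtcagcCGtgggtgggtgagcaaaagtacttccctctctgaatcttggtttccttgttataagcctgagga
Within *Ank*, the region with the lowest ratio of all member regions, at chr15:27503377-27503484, has 6 CpGs in 108 bases and none of these consensus sequences.
Ank intron: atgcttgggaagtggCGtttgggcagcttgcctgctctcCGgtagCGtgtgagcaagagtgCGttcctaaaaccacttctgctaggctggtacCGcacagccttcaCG
Upstream of *Slc20a1*, the busiest region before the gene, higher in TCKO, at chr2:129192619-129192918, has 5 CpGs and 1 Runt consensus.
Slc20a1 upstream: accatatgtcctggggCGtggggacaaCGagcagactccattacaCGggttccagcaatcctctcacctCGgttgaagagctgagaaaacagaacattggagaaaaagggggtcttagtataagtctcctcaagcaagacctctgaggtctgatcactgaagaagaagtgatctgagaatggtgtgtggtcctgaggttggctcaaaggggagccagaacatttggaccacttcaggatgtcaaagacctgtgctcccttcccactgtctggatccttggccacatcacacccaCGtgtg
A consensus match is a description of the letters and not a bound site.

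Each region has a read count in WT and in TCKO. The table summed to 56898657 reads in WT and 34608167 in TCKO, so TCKO counts were multiplied by 1.64 to match the WT total before a log2 ratio of TCKO over WT was formed, with 1 read added to each. A ratio below 0 is lower in TCKO, and a region or sum is called level where its interval held 0, which does not show that the genotypes were equal. With 1 merged column per genotype no replicate check and no test was possible, and the 95% intervals in parentheses come from the counts alone, so they leave out the variation between mice and between libraries and the duplicates made by PCR. Over all regions the median log2 ratio was 0.06. Of the marker lists, within 2 kb of the gene starts, all 5 osteoblast genes had regions, summing to 116 CPM in WT and 111 CPM in TCKO, where CPM sets the reads against the total of the table, and the 3 chondrocyte genes summed to 30.3 and 27.0. The macrophage or osteoclast list summed to 31.4 and 43.8 over 3 of 4 genes (the defining marker *Ptprc* had no region), the endothelial list to 16.7 and 19.7 over 3 of 3, and the muscle list to 4.80 and 5.20 over 2 of 3, with none at *Myog*. In bulk cells, a change in the cells present and a change in accessibility per cell cannot be told apart, and the part of the 1.40-fold higher macrophage or osteoclast sum in the ratios below was not tested.

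The loci of the mineralisation genes did not move as one. Their regions held 31335 reads in WT and 19537 in TCKO, and their median log2 ratio of 0.07 (-0.05 to 0.19) was close to that of all regions. Of the 135 regions, 6 (4.44%) had a TCKO count at least 2-fold below WT, against 4.51% of all regions, and 12 (8.89%) one at least 2-fold above it, against 12.3%. Under the scaling of TMM, a factor that trims extreme ratios, the counts were 7 lower and 9 higher, and with a trend on the mean count removed 7 and 7. Counting each region whose interval left out 0, 28 (20.7%) were lower and 33 (24.4%) higher, against 18.9% and 29.5% of all regions, and the intervals of the other 74 held 0. These shares are near the background, so what follows is about where within each locus the differences lay.

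**Figure D1:**
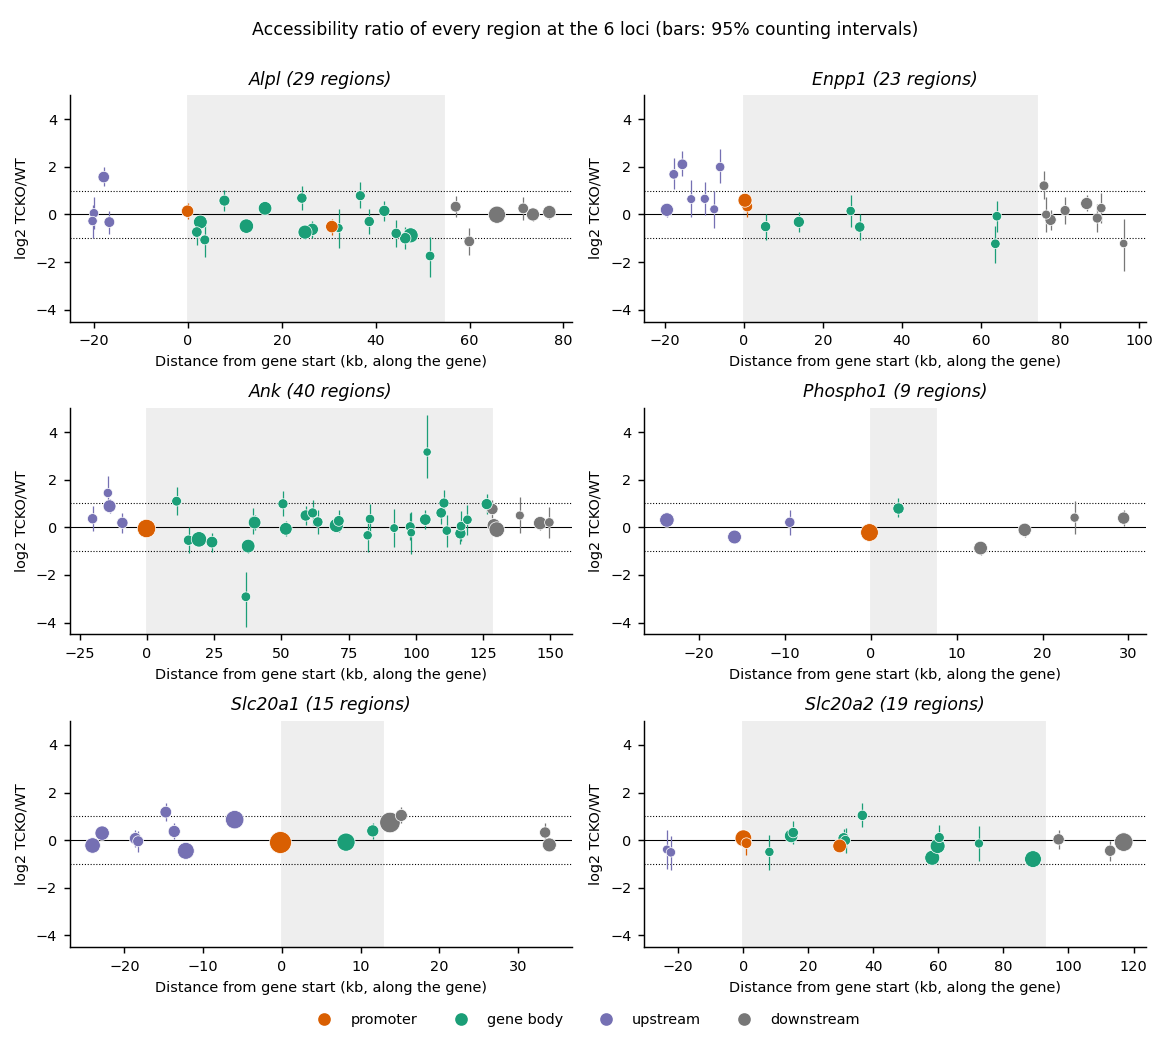
Log2 ratio of TCKO over WT (y axis) for each of the 135 regions against the distance of its middle from the start of its gene, in kb along the direction of transcription (x axis). Points are regions, larger with more reads, bars are 95% counting intervals, grey bands are the genes and dotted lines mark 2-fold. The regions upstream of *Enpp1* lie above 0, most of the regions within *Alpl* lie below 0, and the promoter regions lie between -0.51, at the second start of *Alpl*, and 0.60, at *Enpp1*.

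Summed over its regions, the locus of *Alpl* was lower in TCKO, with 5652 reads in WT and 2981 in TCKO over 29 regions, a log2 ratio of -0.21 (-0.27 to -0.14). *Slc20a2* had 5561 and 2934 reads over 19 regions and also -0.21 (-0.27 to -0.14). *Enpp1* was higher, with 1831 and 1404 reads over 23 regions and a ratio of 0.33 (0.23 to 0.43). *Slc20a1*, the locus with the most reads per kb of region, was higher as well, with 9205 and 6603 reads over 15 regions and 0.24 (0.19 to 0.28). *Ank* had 6296 and 4015 reads over 40 regions and 0.07 (0.01 to 0.13), and *Phospho1* 2790 and 1600 over 9 regions and -0.08 (-0.17 to 0.00). Thus 2 of the 6 loci were lower with an interval that left out 0, 3 were higher and 1 was neither, where 35.7% and 28.0% of the 19921 protein-coding loci with regions were lower and higher by the same rule. The phosphate importers lay on opposite sides of 0, as did the pyrophosphate-removing *Alpl* and the pyrophosphate-making *Enpp1*, but all were below 0 without scaling. Without the flanks, over the gene and 2 kb before its start, *Slc20a1* was at -0.05 (-0.13 to 0.02) and *Enpp1* at 0.09 (-0.06 to 0.25), so both intervals then held 0. Over the regions with a peak in both genotypes, a choice made after the values were seen, *Alpl* was at -0.11 (-0.18 to -0.04) and *Phospho1* at -0.14 (-0.23 to -0.05).

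Each locus but *Ank* kept its side of the median of all regions under the 7 scalings compared, as the plot of locus ratios by scaling shows. Only removing a trend on the mean count or on GC content could well have changed a side. Every other scaling multiplies all TCKO counts by a single factor, so a locus and the median move together, apart from the added read. *Alpl* lay between -0.28 and -0.21 and *Slc20a2* between -0.28 and -0.18 relative to that median, *Enpp1* between 0.22 and 0.27 and *Slc20a1* between 0.16 and 0.35. *Phospho1* lay between -0.16 and -0.07, and *Ank* between -0.01 and 0.04. That median is over single regions, while a locus ratio is of summed reads. With TCKO scaled to the WT total, the median over protein-coding loci was lower, at -0.02. Against it *Ank*, at 0.07, lay higher, and *Alpl*, *Slc20a2* and *Phospho1* lay less far below. The direction in absolute terms did depend on the scaling. Without scaling, or with a depth read off the background that the peak caller used, the median of all regions moved to -0.64 and -0.54, and all 6 loci lay below 0.

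**Figure D2:**
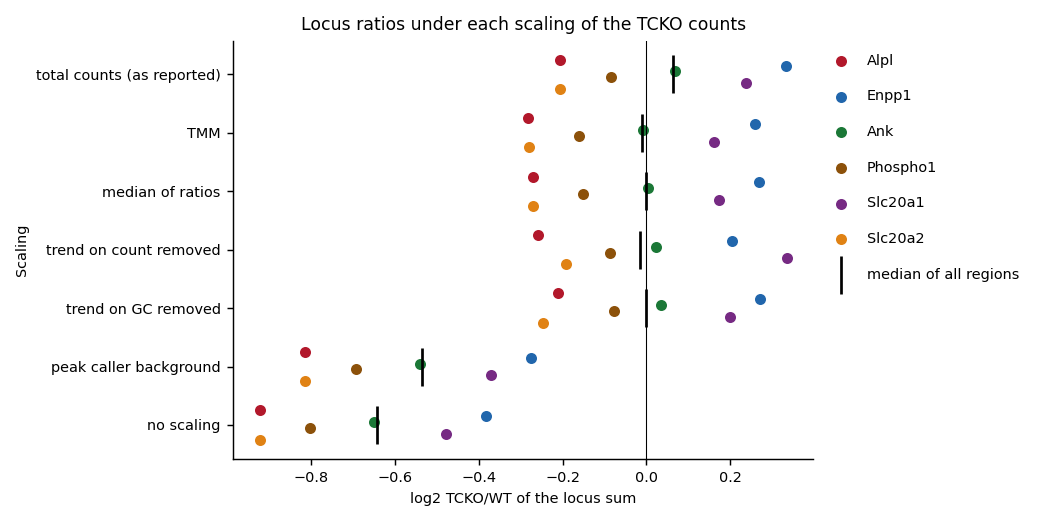
Log2 ratio of TCKO over WT of the summed counts of each locus (x axis) under 7 ways of scaling the TCKO counts (y axis), with the median of all regions as a black tick. *Alpl*, *Slc20a2* and *Phospho1* sit to the left of the tick and *Enpp1* and *Slc20a1* to its right in each of them, while the whole set shifts left with the tick in the last 2.

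*Alpl* (ENSMUSG00000028766, chr4:137741733-137796384, minus strand) was lower in its introns, while its main start was level. The promoter region at the gene start, chr4:137796340-137796570, is GC-rich, with 23 CpGs in 231 bases, and had 184 reads in WT and 123 in TCKO, a ratio of 0.14 (-0.19 to 0.46). At the start of the shorter transcripts, 30.7 kb into the gene, the promoter region chr4:137765530-137765923 had 230 reads in WT and 98 in TCKO and was lower, at -0.51 (-0.85 to -0.17). Each had a peak in both genotypes.

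Of the 17 regions in the body of *Alpl*, 12 had a ratio below 0, and the intervals of 10 lay wholly below it and of 4 wholly above. Their sum was 3287 reads in WT and 1503 in TCKO, at -0.41 (-0.50 to -0.32). Of the 17, 8 had a peak in WT alone, by which they entered the table, 8 in both genotypes and 1 in TCKO alone. The sum leans toward WT by this entry, and it was not formed without those regions. The region of the intron sequence shown above, chr4:137748694-137749199, was the busiest of the 17, with 593 and 196 reads. The fold enrichment of its summit over the local background, given by the peak caller, was 6.47 in WT and 4.91 in TCKO. In a further intron region 24.9 kb from the start, chr4:137771240-137771644, there were 419 reads in WT and 152 in TCKO, a ratio of -0.74 (-1.01 to -0.48), and its summit folds were 7.25 and 4.88. A region 12.5 kb from the start, chr4:137783693-137784170, had 451 and 195 reads, a ratio of -0.49 (-0.73 to -0.25), and summit folds of 7.18 and 3.80. The lower counts thus stood at several separate places in the introns of *Alpl*, and without the busiest region the other 16 of the body were at -0.33 (-0.42 to -0.23).

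In 2 regions within the gene the ratio passed 2-fold. The region chr4:137744761-137744859, 51.6 kb from the start, had 74 reads in WT and 13 in TCKO, which is 3.35-fold lower at -1.75 (-2.63 to -0.95), and a peak was called in WT alone. The region chr4:137792715-137792871, 3.59 kb from the start, had 77 and 22 reads, at -1.07 (-1.77 to -0.41), and again a peak in WT alone. A neighbour of the busiest intron region, chr4:137749892-137750297, stood just short of the cutoff at -0.999 with 162 and 49 reads. Of the 4 intron regions whose intervals lay wholly above 0, 1 had a peak in TCKO alone. The busiest of the 4, 16.4 kb from the start, had 286 reads in WT and 208 in TCKO, at 0.26 (0.00 to 0.52). The highest ratio among them, 36.7 kb from the start, rested on 52 and 55 reads, at 0.79 (0.25 to 1.34).

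Outside the gene the pattern was mixed. The region chr4:137814189-137814439, 17.9 kb upstream, whose sequence is given above, had 78 reads in WT and 142 in TCKO, which is 2.97-fold higher at 1.57 (1.18 to 1.98), and its summit folds were 4.97 and 6.26. The other 3 upstream regions had intervals that held 0. Beyond the end of the gene, chr4:137736361-137736545 had 113 and 31 reads, at -1.13 (-1.72 to -0.58), with a peak in WT alone. The busiest region of the whole locus, chr4:137730078-137731043, between *Alpl* and *Rap1gap*, had 877 and 529 reads, a ratio of -0.01 (-0.17 to 0.14). That level ratio a short way from the gene stood beside the lower counts inside it, and the plot of *Alpl* counts shows both.

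**Figure D3:**
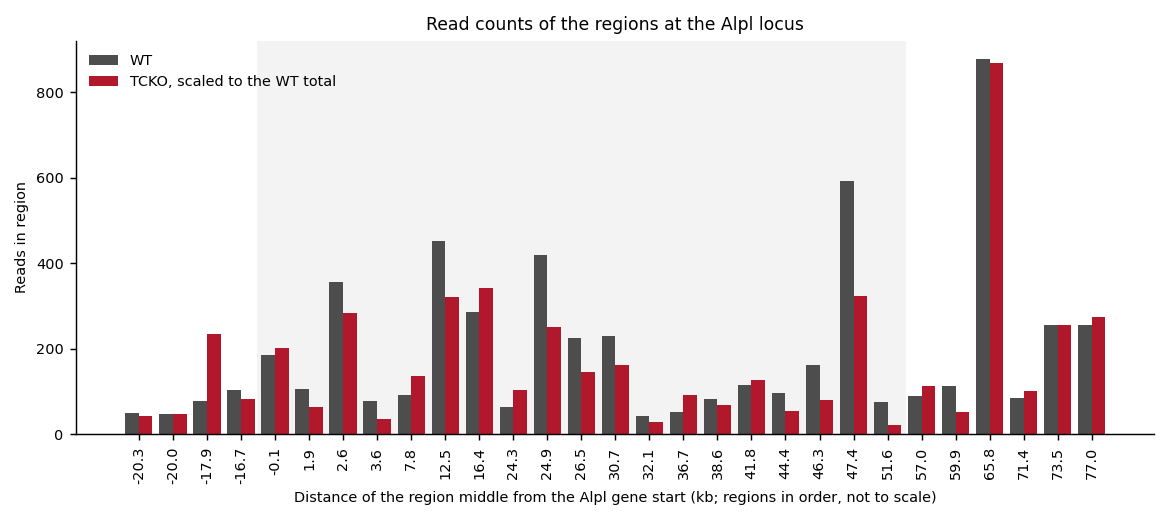
Reads in WT (grey) and in TCKO after scaling to the WT total (red) on the y axis for the 29 regions at *Alpl*, in order along the gene with the distance of each from the gene start in kb on the x axis. The shaded band holds the 19 regions of the promoters and the gene body. Red is lower than grey at most regions within the gene, such as 593 against 322 at 47.4 kb, exceeds it at 16.4 kb (286 against 342) and at 17.9 kb upstream of the gene (78 against 233), and matches it at 65.8 kb (877 against 870).

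*Phospho1* (ENSMUSG00000050860, chr11:95824499-95832140, plus strand) had a small gene body and no region past 2-fold. Its promoter region, chr11:95823948-95824599, with 72 CpGs, had 1040 reads in WT and 559 in TCKO, at -0.18 (-0.33 to -0.03), with summit folds of 8.84 and 7.08. The single region within the gene, in an intron at chr11:95827573-95827737, had 98 and 106 reads, at 0.82 (0.44 to 1.23). It had a peak in TCKO alone, by which it entered the table, so no contrast with the promoter is read from it. All 7 regions of the locus with a summit in both lists had the lower fold enrichment in TCKO, where 69.7% of the 145301 such regions in the series did.

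The flanks of *Phospho1* belong largely to its neighbours. Upstream, in an intron of *Zfp652*, the busiest region away from promoters, chr11:95800586-95800929, had 371 reads in WT and 279 in TCKO, at 0.31 (0.08 to 0.53). A further region of that gene, chr11:95808342-95808928, had 358 and 164 reads and lay on the other side, at -0.41 (-0.68 to -0.14), and the upstream regions summed to 0.02 (-0.14 to 0.18). Downstream, the promoter of *Gngt2*, a G protein subunit gene, at chr11:95837058-95837522, had 371 and 123 reads and the lowest ratio of the locus, -0.87 (-1.17 to -0.58). The sum downstream of *Phospho1* was -0.23 (-0.40 to -0.06), and this promoter of another gene was the only region there with an interval below 0. Without the 4 regions nearer to the start of another gene the locus was at -0.03 (-0.13 to 0.08).

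*Enpp1* (ENSMUSG00000037370, chr10:24637914-24712159, minus strand) was higher at its promoter, and its summed regions were higher upstream and lower within the gene. The promoter region chr10:24711527-24712199, with 66 CpGs, had 288 reads in WT and 265 in TCKO, at 0.60 (0.36 to 0.84). Of the 6 genes it alone had a promoter sum with an interval wholly above 0, 0.54 (0.33 to 0.75). The summit folds were nearly equal, 5.47 in WT and 5.69 in TCKO.

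All 7 regions upstream of *Enpp1* had a ratio above 0, and they summed to 420 reads in WT and 463 in TCKO, at 0.86 (0.67 to 1.05). In 3 of them the ratio was past 2-fold, and in each of these a peak was called in TCKO alone. The region chr10:24718066-24718243, 6.00 kb upstream, had 22 and 55 reads, at 1.99 (1.33 to 2.75), and the region chr10:24727535-24727861, 15.5 kb upstream, had 39 and 104, at 2.10 (1.60 to 2.66). The third, chr10:24729815-24729947, 17.7 kb upstream, had 29 and 58 reads, at 1.68 (1.08 to 2.36). The busiest region upstream, chr10:24731357-24731880, was level, with 240 and 167 reads at 0.19 (-0.09 to 0.48), so the higher sum came from regions with few reads in WT. A region enters the table through a peak in either genotype, so the 3 regions with a peak in TCKO alone had to be high there. The 4 others, of which 3 had a peak in WT alone, had 330 reads in WT and 246 in TCKO, at 0.29 (0.06 to 0.53), a sum formed after the values were seen.

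In the body of *Enpp1*, 5 of 6 regions had a ratio below 0, with a sum of 467 and 213 reads at -0.42 (-0.65 to -0.18). Of the 6, 3 had a peak in WT alone, by which they entered the table, and 3 in both genotypes. The sum leans toward WT by this entry, and it was not formed without those regions. The intron region chr10:24648460-24648611 had 67 reads in WT and 17 in TCKO, at -1.23 (-2.02 to -0.50), and a peak in WT alone. Among the regions of at least 100 reads the lowest was the intron region chr10:24682660-24683032, with 93 and 39 reads, at -0.53 (-1.07 to -0.00). Past the end of the gene, chr10:24636121-24636371 had 38 and 54 reads, at 1.20 (0.63 to 1.82), and a peak in TCKO alone. That flank runs toward *Ccn2*, a matricellular growth factor gene, whose start was nearer than that of *Enpp1* for 10 of the 23 regions. Without these 10 the *Enpp1* locus was at 0.47 (0.34 to 0.59).

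*Ank* (ENSMUSG00000022265, chr15:27466677-27594909, plus strand), the longest of the 6 genes, had the most regions, and its promoter was level. The promoter region chr15:27465522-27467252, with 150 CpGs, had 1192 reads in WT and 709 in TCKO, at -0.03 (-0.17 to 0.10), and its summit folds were 7.01 and 7.07. The 29 regions of the gene body summed to 3437 and 2088 reads, at -0.00 (-0.08 to 0.08), yet they spanned the widest range of any gene here, from -2.92 to 3.16.

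The lowest ratio was that of the intron region chr15:27503377-27503484, 36.8 kb from the start, with 81 reads in WT and 6 in TCKO. This is 7.55-fold lower, at -2.92 (-4.20 to -1.87). The region had a peak in WT alone, by which it entered the table. It was the only member region whose interval lay wholly past 2-fold lower. Its neighbour chr15:27503929-27504635 was lower too, with 373 and 131 reads at -0.79 (-1.08 to -0.51). So was the region chr15:27485549-27486424, 19.3 kb from the start, with 619 and 265 reads at -0.51 (-0.71 to -0.30). The 4 regions of *Ank* with an interval wholly below 0 all lay between 19.3 and 37.6 kb from the start.

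Of the 29 body regions, 18 had a ratio above 0, where 139585 of the 255864 regions of the series did, so nothing particular to *Ank* is read from this count. A peak in TCKO alone was called in 4 of the 29. The intron regions chr15:27477546-27477747, with 41 and 54 reads at 1.10 (0.53 to 1.70), and chr15:27577079-27577223, with 49 and 61 at 1.02 (0.49 to 1.57), were past 2-fold higher. The latter, with a peak in TCKO alone by which it entered the table, had just passed the cutoff. An intron region 50.6 kb from the start, with 51 and 62 reads, stood just short of it at 0.99. The highest ratio of all members, 3.16 (2.08 to 4.71), rested on 5 reads in WT and 32 in TCKO in the intron region chr15:27570835-27570936. That region too entered the table by a peak in TCKO alone. It is under the minimum of 50 reads for naming a region and was named after its value was seen.

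All 4 regions upstream of *Ank* were above 0, with a sum of 383 reads in WT and 373 in TCKO at 0.68 (0.47 to 0.88). The region chr15:27451991-27452171 had 26 and 44 reads, at 1.44 (0.78 to 2.17), and a peak in TCKO alone, by which it entered the table. Downstream lies *Otulin*, a deubiquitinase gene, in whose intron the busiest non-promoter region of the locus, chr15:27596537-27597081, was level at -0.10 (-0.29 to 0.10) with 566 and 322 reads.

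*Slc20a1* (ENSMUSG00000027397, chr2:129198764-129211616, plus strand) had the most accessible promoter of the 6 genes, and it was level. The region chr2:129197920-129199210, with 114 CpGs, had 2548 reads in WT and 1472 in TCKO, at -0.07 (-0.17 to 0.02). The intron region chr2:129206557-129207257 was level as well, with 1139 and 654 reads at -0.08 (-0.22 to 0.06), though its summit fold was 8.04 in WT and 4.21 in TCKO. In TCKO the background behind that summit was higher than in WT, 9.69 against 8.08 reads, before any scaling.

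The higher sum of the *Slc20a1* locus came from its flanks, mainly from a single busy region in each, and a sum without these was not formed. Upstream, the region chr2:129192315-129193222, 6.00 kb before the start, had 905 reads in WT and 1000 in TCKO, at 0.86 (0.73 to 0.99), one of 3 member regions of at least 300 reads with more raw reads in TCKO than in WT. Its summit folds were 8.72 and 8.37, which are each relative to the background of the same library. Just past the gene end, chr2:129211940-129213041 had 1502 and 1527 reads, at 0.74 (0.64 to 0.84), with summit folds of 4.83 and 4.43. The neighbouring region chr2:129213848-129214019 had 121 and 152 reads, at 1.04 (0.70 to 1.39), just past the cutoff, and chr2:129183874-129184167, 14.7 kb upstream, had 99 and 137, at 1.18 (0.81 to 1.56).

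Busy upstream regions of *Slc20a1* also went the other way. The region chr2:129186204-129186921, 12.2 kb before the start and 6.21 kb from the higher one, had 898 reads in WT and 400 in TCKO, at -0.45 (-0.62 to -0.28), and its summit folds were 9.72 and 6.83. Their WT counts were nearly equal, and in TCKO the counts differed by 2.5-fold. The region chr2:129174490-129174949, 24.0 kb before the start, was lower too, with 580 and 302 reads at -0.22 (-0.42 to -0.02). No other protein-coding gene start was nearer to any of the 15 regions of this locus. Counted over the gene body and 2 kb of upstream sequence alone, the locus was at -0.05 (-0.13 to 0.02).

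*Slc20a2* (ENSMUSG00000037656, chr8:22476788-22569612, plus strand) was lower mainly through 2 intron regions. The promoter region chr8:22476118-22477555, with 146 CpGs, is shared with *Smim19*, which starts beside it, and had 749 reads in WT and 482 in TCKO, at 0.08 (-0.08 to 0.25). The body of the gene, by contrast, summed to 2790 and 1336 reads over 11 regions, at -0.35 (-0.44 to -0.25). In the region near the gene end with the most reads in the gene, chr8:22565290-22566475, there were 945 and 331 reads, at -0.80 (-0.98 to -0.62), with summit folds of 8.17 and 5.06. The nearest start to that region was that of *Vdac3*, 27875 bases away. The region chr8:22534628-22535179, 58.1 kb from the start, had 563 and 205 reads, at -0.74 (-0.97 to -0.51), with summit folds of 5.52 and 4.05.

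These were the 2 busiest regions of the body and held 1508 of its WT reads, and the 9 others had 1282 reads in WT and 800 in TCKO, at 0.04 (-0.09 to 0.16). The number left out, 2 here and 1 at *Alpl*, was not set by a planned rule. Of the 9, the region chr8:22536180-22536935 was lower, with 496 and 254 reads at -0.25 (-0.47 to -0.03). The median ratio of the 11 regions was -0.01, so the lower sum did not extend along the whole gene. One intron region, chr8:22513276-22513563, 36.6 kb from the start, was past 2-fold higher, with 57 and 72 reads at 1.04 (0.56 to 1.55), and it holds 2 matches to the bZIP consensus (TGANTCA, bound by AP-1 proteins). At the far end of the flank the promoter of *Vdac3*, a mitochondrial channel gene, was level, with 1242 and 714 reads at -0.08 (-0.21 to 0.05).

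**Figure D4:**
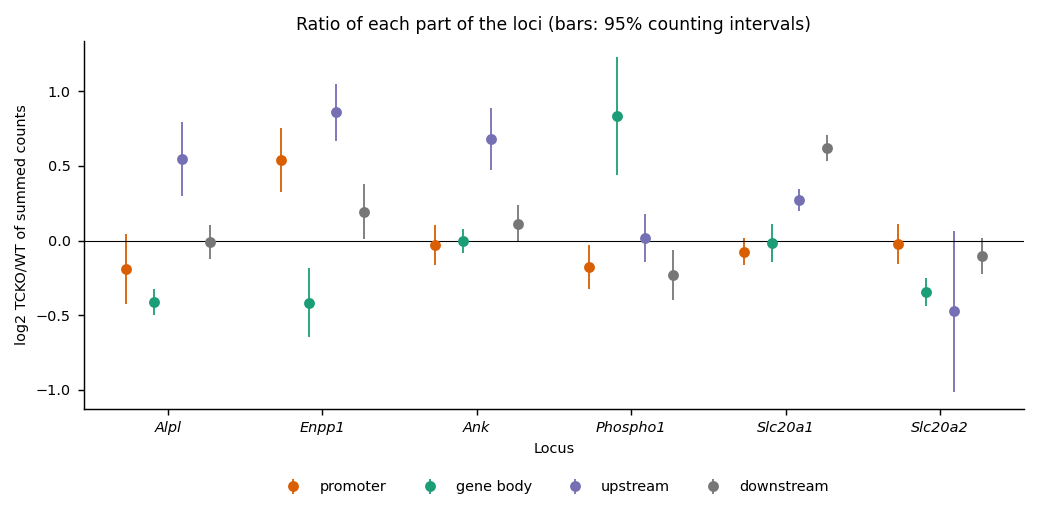
Log2 ratio of TCKO over WT of the summed counts (y axis) for the promoter regions, gene body and the flanks of 25 kb of each locus (x axis), with 95% counting intervals as bars. Promoter intervals hold 0 at *Alpl*, *Ank*, *Slc20a1* and *Slc20a2*, lie below 0 at *Phospho1* and above 0 at *Enpp1*, while gene bodies at *Alpl*, *Enpp1* and *Slc20a2* lie below 0.

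None of the 10 promoter regions of the mineralisation genes was past 2-fold, and their sum was at -0.04 (-0.09 to 0.02). The 22829 promoter regions of the series summed to -0.11 with a median of -0.07, and 290 of them (1.27%) were past 2-fold lower and 619 (2.71%) higher. Of the 233035 other regions of the series, which summed to 0.04, 4.83% were past 2-fold lower and 13.2% higher, so few promoters past 2-fold was the usual state over all genes. Set side by side per kb of region, the WT level at the gene start was highest at *Slc20a1* with 1974 reads, followed by *Phospho1* with 1595, *Alpl* with 797, *Ank* with 689, *Slc20a2* with 521 and *Enpp1* with 428. In TCKO after scaling, the levels per kb were 1875, 1410, 875, 673, 551 and 647 in that order of genes, so *Enpp1* passed *Slc20a2* and the rest kept their places. Neighbours in this order were not tested against each other. The 66 gene body regions summed to -0.20 (-0.24 to -0.15), the 28 upstream regions to 0.33 (0.27 to 0.39) and the 31 downstream regions to 0.18 (0.13 to 0.23). The flank sums lean on *Slc20a1*, which held 3273 of the 5242 WT reads upstream and 2087 of the 7965 downstream. Downstream, the loci were at -0.23 (*Phospho1*), -0.10 (*Slc20a2*), -0.01 (*Alpl*), 0.11 (*Ank*), 0.19 (*Enpp1*) and 0.62 (*Slc20a1*). The same parts were not summed over all genes, so no pattern of the set is read from these sums.

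None of the regions past 2-fold was among the busiest. Of the 43 member regions with at least 300 reads over both genotypes, none was past 2-fold in either direction, and their median was -0.08. Among the 57 regions from 100 to under 300 reads, 1 was past 2-fold lower and 6 higher, and among the 35 regions under 100 reads, 5 were lower and 6 higher. Over all regions of the series the same classes, from most to fewest reads, had 3.13%, 3.90% and 6.29% past 2-fold lower and 2.95%, 10.4% and 21.9% higher, so there too regions with fewer reads passed 2-fold more often. The regions past 2-fold held between 37 and 273 reads, where the member regions ranged from 37 to 4020 with a median of 174. The regions of at least 300 reads that differed, in *Alpl*, *Slc20a2* and around *Slc20a1*, were within 2-fold, which the plot of counts shows.

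**Figure D5:**
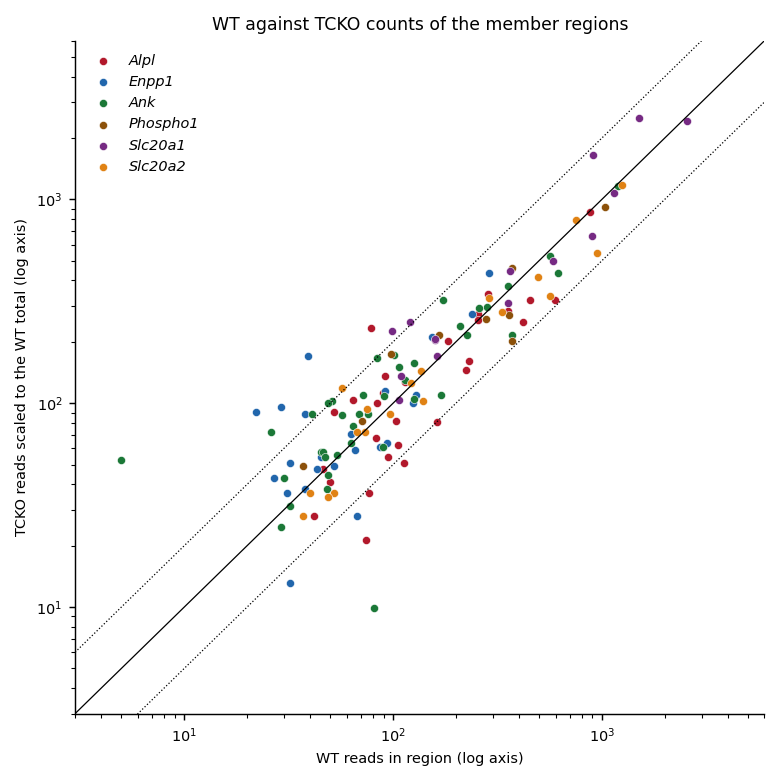
Reads of each of the 135 regions in WT (x axis) against reads in TCKO scaled to the WT total (y axis), both on log axes, coloured by locus. The solid line marks equal counts and the dotted lines 2-fold, and the 18 regions outside the dotted lines hold between 37 and 273 reads over both genotypes.

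Peaks were called in both genotypes in 78 of the member regions, in WT alone in 45 and in TCKO alone in 12. These are 57.8%, 33.3% and 8.89% of the members, near the 56.8%, 33.0% and 10.2% of all regions. The 6 regions past 2-fold lower all had a peak in WT alone. Of the 12 past 2-fold higher, 7 had a peak in TCKO alone and 5 in both. In the 78 regions with peaks in both, the summit fold was lower in TCKO in 57 (73.1%), against 69.7% over the series, so a lower fold was the usual state over all regions.

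The short consensus sequences were searched in the central 200 bases on both strands. The Runt consensus was found in 25 of the 135 regions (18.5%) and in 22.2% of all regions, the bZIP consensus in 27 and 23.6%, the TEAD consensus GGAATG in 23 (17.0%) and 16.3%, the homeobox consensus TAATTA in 3 (2.22%) and 2.47%, and the GC box in 15 (11.1%) and 7.28%. None of the 25 member regions with the Runt consensus was past 2-fold lower and 4 were past 2-fold higher, with a median of 0.19, and the 110 others had 6 and 8 and a median of 0.06. Over all regions, 4.80% of those with the Runt consensus were past 2-fold lower and 12.5% higher, with a median of 0.08, against 4.43% and 12.2% of those without, with a median of 0.06. Beside that background nothing is read from these small counts among the members. The 27 regions with the bZIP consensus had a median of 0.29, with 6 past 2-fold higher, and the 108 others a median of -0.00, also with 6. Over all regions the medians with and without the bZIP consensus were 0.42 and -0.02, so a higher median with the bZIP consensus was also seen over all regions, and the sizes of the 2 differences were not compared by a test.

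Of 20 other genes of phosphate and pyrophosphate handling, matrix vesicles and alkaline phosphatase activity, all had regions, 299 in all and none shared with the 6 members. By the sum of the locus, 5 were lower with an interval that left out 0, 10 were higher and 5 held 0, with a median of 0.09, where 35.7% of all protein-coding loci were lower and 28.0% higher. The lower ones were *Anxa2* at -0.36 (-0.40 to -0.33), *Slc34a3* at -0.22, *Anxa5* at -0.12, *Enpp3* at -0.08 and *Entpd1* at -0.07. Annexins A2 and A5 bind calcium and membranes and are found in matrix vesicles, yet the third of that family on the list, *Anxa6*, was higher at 0.19 (0.14 to 0.25).

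Among the higher loci were *Slc34a2*, a sodium-phosphate cotransporter of epithelia, at 0.48 (0.34 to 0.61), and *Phex*, a peptidase of bone cells that bears on phosphate balance, at 0.28 (0.16 to 0.39). *Nt5e*, which makes adenosine from AMP, was at 0.23 (0.15 to 0.30) and *Abcc6*, a transporter whose action supplies ATP to ENPP1, at 0.17 (0.08 to 0.26). The intestinal and embryonic alkaline phosphatase genes *Alpi*, *Akp3* and *Alppl2* were at 0.17, 0.19 and 0.25, but they lie side by side and shared regions, 14 distinct ones in all. The phosphate exporter gene *Xpr1* held 0 in its interval, at 0.06 (-0.02 to 0.14), as did *Smpd3*, *Phospho2*, *Fam20c* and *Fgf23*, and *Slc34a1* (0.19) and *Kl* (0.12) were higher. Of the 299 regions, 12 (4.01%) were at least 2-fold lower and 30 (10.03%) at least 2-fold higher, against 4.51% and 12.3% of all regions.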

How the data were processed

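ATAC-seq libraries of WT and TCKO primary osteoblasts were aligned by the authors with STAR 2.7.0e, end to end and for uniquely mapping reads, to GRCm38. Replicates were merged and peaks were called with MACS2. Removal of duplicate or mitochondrial reads, and a shift of reads for the transposase, were not stated. The authors deposited raw read counts per region, 1 merged column per genotype, named for bedtools multicov. In the peak lists they deposited, every summit has a fold enrichment (a ratio to local background within that library) and a −log10 p-value, and q-values were not used here. Pileups and backgrounds behind the folds were solved from these values. Total counts of 56898657 in WT and 34608167 in TCKO set the precision.

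The planned edgeR test needs a column per replicate and could not be run, so no p-value was computed. TCKO counts were scaled to the WT total, 1 read was added, and the cutoff of 2-fold followed the study. The share of reads from TCKO was given a 95% Wilson interval, which was turned into a ratio. A promoter was the 1 kb on either side of the start of any protein-coding transcript in GENCODE M21, and regions were assigned to it by their middle. In the parts of a locus, only starts of the member gene counted. Other regions overlapping the gene were its body, and the rest were upstream or downstream by their middle. Sums of a locus overlapping the gene or its 25 kb flanks were also taken for the nearest start, for the gene with the 2 kb before it, and within 2 kb of a start. Alternative scalings were TMM (edgeR 4.0.16, R 4.3.3), size factors (DESeq2 1.42.0), loess (statsmodels 0.14.6, span 0.3), medians of 20 bins of GC content, none, and the background of the peak caller. Regions named singly were, at each locus, the promoter with most reads, the region with most reads away from promoters, those past 2-fold with at least 50 reads, and the lowest and highest ratio among those of at least 100 reads. The promoter at the gene start and regions whose sequence is shown were named too. So were, after their values were seen, intron regions of *Alpl*, *Ank*, *Slc20a1* and *Slc20a2*, upstream regions of *Phospho1* and *Slc20a1*, and promoters of neighbouring genes. Sequences came from the RefSeq copy of GRCm38. Some sequences are not reported here. The members, lists, consensus sequences and rules were chosen with earlier results of these data known. The steps were tested on simulated data and used Python 3.11.15, numpy 2.4.6, pandas 2.3.3, scipy 1.17.1 and matplotlib 3.10.9.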

Additional observations from a re-analysis of the deposited data

How the results depend on the processing

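No paired analysis was possible because the table holds 1 merged column per genotype, and for the same reason no replicate could be left out. With no scaling, 35 member regions were at least 2-fold lower and 3 higher, the median was -0.64, and the loci were at -0.92 (*Alpl*), -0.38 (*Enpp1*), -0.65 (*Ank*), -0.80 (*Phospho1*), -0.48 (*Slc20a1*) and -0.92 (*Slc20a2*). With the background of the peak caller as depth the counts were 29 and 4, the median -0.53 and the loci, in that order, -0.81, -0.27, -0.54, -0.69, -0.37 and -0.81. TMM gave -0.28 at *Alpl*, -0.0075 at *Ank*, 0.16 at *Slc20a1* and -0.28 at *Slc20a2*, and DESeq2 size factors -0.27, 0.0030, 0.17 and -0.27. The loess fit gave 7 regions higher, 0.20 at *Enpp1* and 0.34 at *Slc20a1*. A fold of 1.5 gave 17 lower and 26 higher, and an interval wholly past 2-fold 1 and 5. Within the gene and 2 kb before it, 4 were higher, the median was -0.049, and *Alpl* was at -0.38, *Enpp1* at 0.091 (-0.064 to 0.246), *Ank* at -0.0095 and *Slc20a1* at -0.054. With regions nearest the member's start, 3 were lower, and *Alpl* was at -0.30, *Enpp1* at 0.47 and *Ank* at -0.020. Within 2 kb of a start *Alpl* was at -0.38, *Enpp1* at 0.54, *Ank* at -0.032, *Phospho1* at -0.18, *Slc20a1* at -0.074 and *Slc20a2* at -0.011. The GC trend, 10 added reads and a minimum of 50 reads left each result on its side and within 1.5 times or its interval. With regions that had a peak in both genotypes alone, chosen after seeing the data, *Alpl* was at -0.11, *Phospho1* at -0.14 with an interval that left out 0, and *Ank* at 0.036 with one that held it, and the others stayed on their side. Which scaling is right was not tested. In 74 of the 135 member regions the interval held 0, so no difference was detectable there at this depth.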
